A study of Mus musculus with 18 samples.

Results

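The vacuolar ATPase, the proton pump of lysosomes and synaptic vesicles, is described here through 10 of its genes: Atp6v0a1, Atp6v0b, Atp6v0c, Atp6v0d1, Atp6v1a, Atp6v1b2, Atp6v1c1, Atp6v1d, Atp6v1e1 and Atp6v1h. The members were all probe sets whose only gene symbol in the array's annotation is one of these. A probe set is a group of short probes on the array that reads 1 transcript or several related ones. 9 of the 10 genes were represented, by 27 of the 45101 probe sets, among 18194 genes in all. Of these 27 probe sets, 23 were bright enough to be tested, and 4 were too dim: 2 of Atp6v1b2, 1 of Atp6v1e1 and 1 of Atp6v1h. Atp6v0c, which encodes the main proteolipid of the proton-carrying ring, was not analysed here, since no probe set in the annotation used bears that symbol alone.

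The pump has a pair of sectors. V1, on the cytosolic side, splits ATP and turns a central stalk. The stalk turns the ring of V0, in the membrane, which carries protons into the lumen. In neurons it acidifies lysosomes, where acid hydrolases need the low pH, and it builds the proton gradient that loads transmitter into synaptic vesicles. V1 and V0 can come apart, which stops the pump, so the amount of subunit mRNA is not a measure of pump activity.

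The study set mice that lack Ppt1 against wild-type mice. Ppt1 codes for a lysosomal thioesterase that takes palmitate off proteins, and its loss in people causes the infantile form of neuronal ceroid lipofuscinosis. Total RNA of 18 samples was hybridised to 1 Affymetrix mouse array each. The 6 groups were the knockout at 3, 5 and 8 months of age and the wild type at 3, 5 and 8 months of age, with 3 arrays in each. The 8-month knockout held 2 males and 1 female, and each other group 1 male and 2 females. The labels name no strain, allele or treatment, and do not say whether the 3 samples of a group are separate mice, so each p-value is set against a spread that may be technical. The source is labelled with both brain and cochlea. The neuronal and astrocyte markers looked up were above background on all 18 arrays, whereas of 12 cochlear markers only Otof, Myo7a and Coch were.

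Values are signals on the deposited linear scale, and differences are knockout minus wild type in log2(signal + 16) with the standard error of the fit. A probe set passed where its p-value from limma, adjusted by the Benjamini-Hochberg method over all 27022 probe sets tested, was below 0.05. Signals of different probe sets are not comparable as amounts of RNA. The signal of Ppt1 itself (1422467_at) was between 0.879 and 23.4 on the 9 knockout arrays and between 543 and 629 on the 9 wild-type arrays, a difference of -4.46 ± 0.12 (adjusted p = 1.27e-16). At 3 months it was at least 46.3-fold lower in the knockout, where all arrays were at or below background. Of its other probe sets, 1422468_at (-3.57 ± 0.15) and 1444884_at (-0.78 ± 0.15) were also lower and 1420015_s_at was not (0.11 ± 0.12, adjusted p = 0.611). The labels therefore matched the targeted gene on all 18 arrays.

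The 3 arrays of the 8-month knockout differed among themselves. The signals of the 19 microglial markers with a probe set, of which 18 were tested, were summed on each array. The sum was 15613 and 17862 in replicates 1 and 2 of the 8-month knockout, against 9121 in its replicate 3. It was between 9567 and 10327 in the 5-month knockout, above that replicate 3, and between 4998 and 5351 in the 8-month wild type. The 9 cerebellar markers summed to 10689 and 10729 in replicates 1 and 2 of the 8-month knockout, against 14774 in replicate 3. They summed to between 13943 and 15372 in the 5-month knockout and between 14905 and 15923 in the 8-month wild type. Which of the 3 arrays is the unusual one cannot be told from these sums. Differences of single pump probe sets that passed at 8 months are therefore also given without replicates 1 and 2 of that knockout group. This choice was made after the data were seen. The array kept has the lowest microglial sum of the 3. A pass lost without the other 2 does not show that a difference is absent. The knockout at 8 months is then 1 array, whose spread is assumed to be that of the other groups. In an extract of whole tissue, fewer cells of a type and less RNA per cell cannot be told apart.

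Promoter sequences are shown for the members that carry an E-box of the kind recognised by TFEB and its relatives, transcription factors that switch on many lysosomal genes. They are 30-base windows of the RefSeq promoters on build GRCm38.p6, which run from 250 bases before a gene's annotated start to 50 after it. Capitals mark CACGTG, or TCACGTGA where the longer form is present, and every window reads 5′ to 3′ on the strand of its gene.
Atp6v0b: gggggtCACGTGgggtcggcgcatCACGTG
Atp6v0d1: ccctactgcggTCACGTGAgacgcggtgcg
Atp6v1a: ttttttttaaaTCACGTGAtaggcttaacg
Atp6v0e: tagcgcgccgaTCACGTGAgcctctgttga
The first 3 lie at chr4:117887342-117887371, chr8:105566050-105566079 and chr16:44139373-44139402, all on the minus strand. The fourth, of a pump gene outside the 10 members that is described below, lies at chr17:26676387-26676416 on the plus strand. Both motifs read the same on the 2 strands, and every TCACGTGA contains a CACGTG.

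Of the 7 members with a window in the RefSeq table, 3 held CACGTG and 2 of these held TCACGTGA, against 8.09% and 1.12% of all 27025 genes. Atp6v0b held CACGTG in 2 copies, the first bases of which lie 36 and 18 bases before the start, and that of Atp6v0d1 begins 3 bases before it. In Atp6v1a it begins 131 bases before a start that is 443 bases inside the gene's annotated span. The windows of Atp6v0a1 and Atp6v1d, the genes whose signals passed the test below, held neither motif. Their annotated starts are 976 and 370 bases inside the span of the gene, so the windows need not be the promoter in use. Of the lysosomal genes listed below, 8 of the 19 with a window held CACGTG and 4 held TCACGTGA, and of the synaptic vesicle genes 1 of 15 and 0. These matches are letters in a window and were not tested as binding sites.

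Averaged over the 3 ages, the signal of most pump subunits differed little between knockout and wild type, and the 3 probe sets that passed were lower in the knockout. They belonged to Atp6v0a1, the V0 subunit that holds the path of the protons, and to Atp6v1d, the rotor subunit of the V1 central stalk. Of 23 member probe sets, 0 were higher and 3 lower by limma, or 13.0%, while 12.6% of all tested probe sets passed in this comparison, 6.62% higher and 6.02% lower. The members' share is near that background. At an unadjusted p under 0.05 there were 7, of which 1 was higher and 6 lower. The share of all probe sets at that unadjusted cut was not computed. Counts at it, here and below, therefore cannot be set against a background. The median difference of the 23 was -0.06, against -0.01 over all tested probe sets. By the brightest probe set of each gene, 1 of 9 genes was lower, Atp6v1d. For these 9 the 95% intervals of the difference all lay between -0.22 and 0.12. In 0 member probe sets did all 9 knockout arrays lie apart from all 9 wild-type arrays, against 1.13% of all probe sets with the knockout higher and 0.377% with it lower. For the 3 probe sets that passed, the differences without replicates 1 and 2 of the 8-month knockout are given below.

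**Figure D1:**
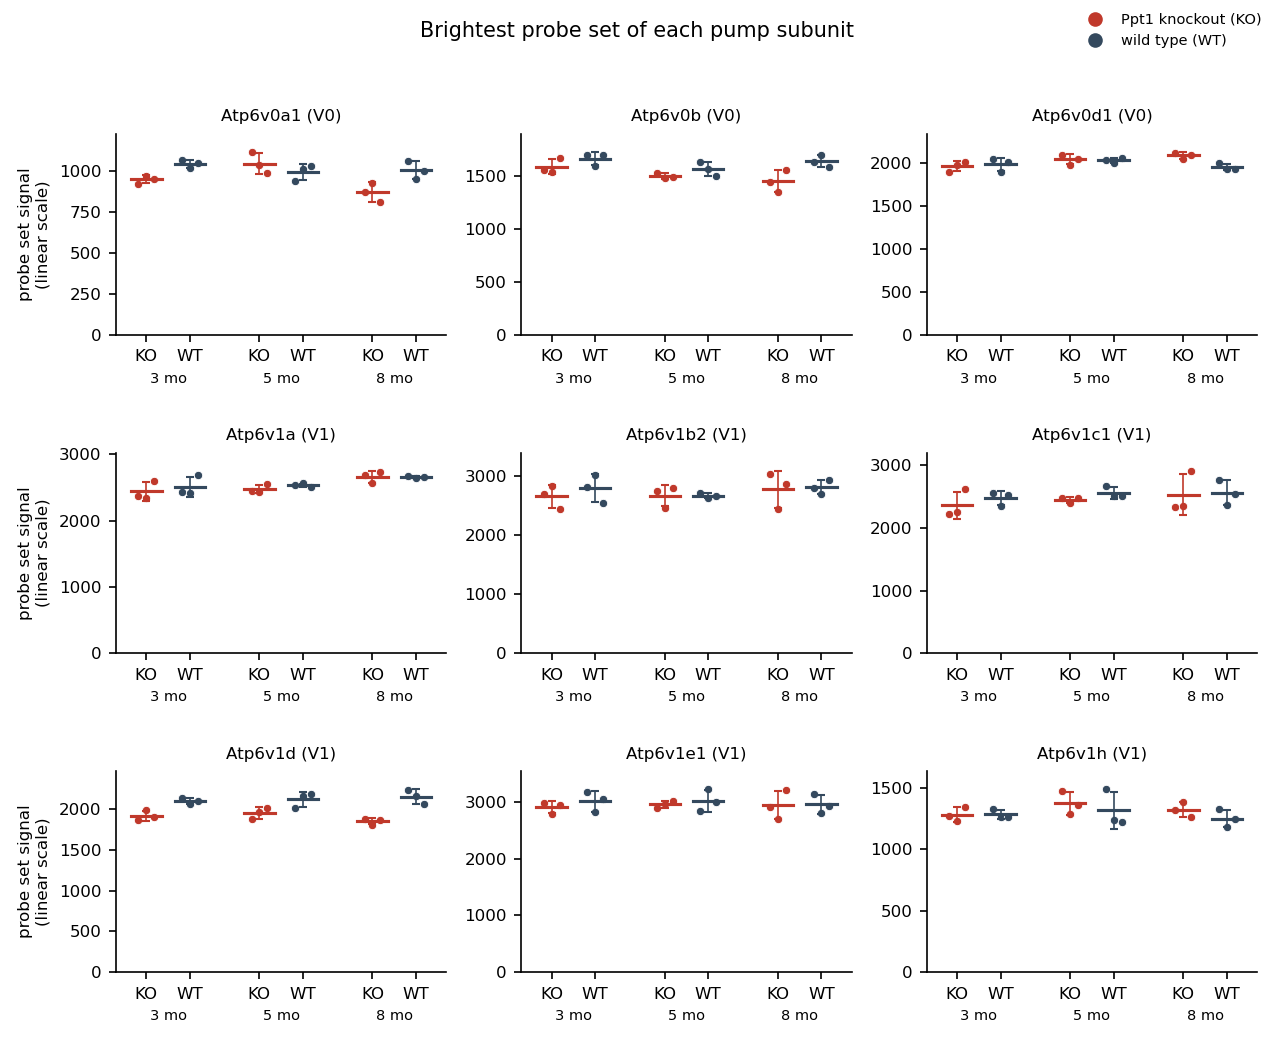
Signal of the brightest probe set of 9 pump subunits on each array (linear scale), in knockout (red) and wild-type (dark) samples at 3, 5 and 8 months. Points are arrays, bars the mean of 3 arrays and whiskers the SD. The mean of Atp6v1d is lower in the knockout at each age (1857 against 2156 at 8 months).

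Atp6v0a1 encodes subunit a1, the neuronal form of the V0 subunit that holds the channels through which protons enter and leave the ring, and it sends pumps to synaptic vesicles and lysosomes. Its 4 probe sets did not move together. At 8 months 1425227_a_at read 321, 262 and 339 in the knockout, against 548, 566 and 512 in the wild type. 1460650_at read 273, 303 and 314 in the knockout, against 476, 471 and 504 in the wild type. Every knockout array was thus below every wild-type array for both, with differences of -0.83 ± 0.18 (adjusted p = 0.00401) and -0.69 ± 0.13 (adjusted p = 0.00107).

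The brightest Atp6v0a1 probe set, 1417632_at, read 870, 927 and 807 in the 8-month knockout, against 1057, 950 and 1000 in the wild type. These groups did not overlap either, but the difference was -0.20 ± 0.07 and did not pass (adjusted p = 0.0771, 95% interval -0.36 to -0.05). The dimmest, 1459924_at, had between 7.85 and 36.8 in the 8-month knockout, against 19.4 to 40.5 in the wild type, with 2 of all 18 arrays at or below background.

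At 3 months the signal of 1425227_a_at was 533, 457 and 504 in the knockout, against 575, 450 and 472 in the wild type, a difference of 0.00 ± 0.17. That of 1460650_at was 480, 394 and 444 in the knockout, against 501, 429 and 526 in the wild type (-0.14 ± 0.12, adjusted p = 0.804). The groups overlapped for both. At 5 months 1425227_a_at read 217, 284 and 332 in the knockout, against 450, 483 and 247 in the wild type. 1460650_at read 315, 326 and 384 in the knockout at that age, against 433, 468 and 311 in the wild type. Replicate 3 of the 5-month wild type read lower than the other 2 on both, and neither difference passed (adjusted p = 0.24 and 0.469). Without that array, the difference of 1425227_a_at at 5 months was -0.73 ± 0.14 and passed (adjusted p = 0.00776). Each array was left out in turn, and this fit is named because that array read low. The knockout array that read 217 stayed in it, so the fit favours a difference.

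Averaged over the 3 ages, the differences were -0.42 ± 0.10 for 1425227_a_at (fold 0.745, adjusted p = 0.00726) and -0.35 ± 0.07 for 1460650_at (fold 0.786, adjusted p = 0.00233). For 1417632_at the value was -0.09 ± 0.04 (adjusted p = 0.182), and for 1459924_at -0.14 ± 0.16 (adjusted p = 0.63). With the 4 probe sets averaged on the log2 scale, Atp6v0a1 had a difference of -0.25 ± 0.06 over the ages (adjusted p = 0.00888) and of -0.58 ± 0.11 at 8 months (adjusted p = 0.00184).

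**Figure D2:**
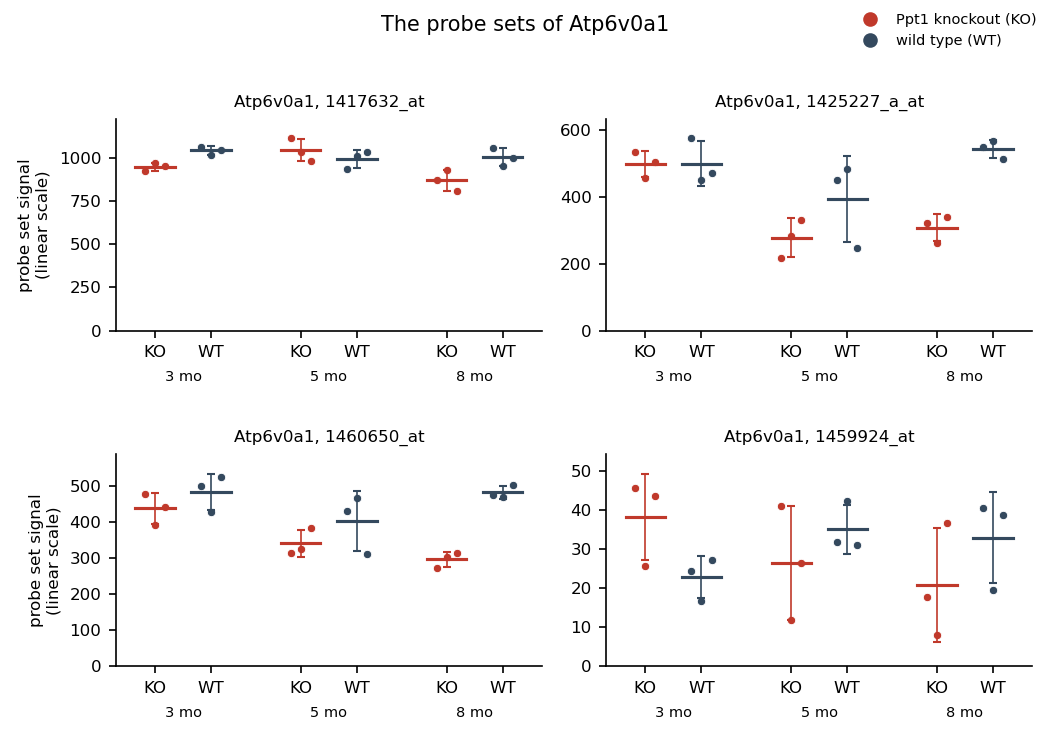
Signal of the 4 probe sets of Atp6v0a1 on each array (linear scale, with an axis of its own in each panel), in knockout (red) and wild-type (dark) samples at 3, 5 and 8 months. Bars are means of 3 arrays and whiskers the SD. In 1425227_a_at and 1460650_at the 8-month knockout lies below the 8-month wild type, while the brightest, 1417632_at, shows a smaller gap.

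At 5 months, in each genotype, these 2 Atp6v0a1 probe sets read least on the array with the lowest 5′ to 3′ ratio of the actin control probe sets. This is a measure of how far along the transcripts the labelled RNA reaches. That ratio was 0.482, 0.448 and 0.432 in the 8-month knockout, against 0.525, 0.501 and 0.51 in the 8-month wild type. The lowest 2 ratios were 0.389, in replicate 1 of the 5-month knockout, and 0.412, in replicate 3 of the 5-month wild type. Those are the knockout and the wild-type array on which 1425227_a_at read least at 5 months. The ratios of the 8-month groups did not overlap. Within the 8-month knockout the signals did not follow the ratio. At 0.482, 0.448 and 0.432, 1425227_a_at read 321, 262 and 339, and 1460650_at read 273, 303 and 314. At 0.48 and 0.485, in replicates 3 and 2 of the 3-month wild type, 1425227_a_at read 472 and 450, and 1460650_at read 526 and 429. The brightest Atp6v0a1 probe set read 1112 at the ratio of 0.389, 1031 at 0.412 and 807, its lowest, at 0.432 in replicate 3 of the 8-month knockout.

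With the log2 actin ratio as a covariate, a fit added after the data were seen, the 8-month difference of 1425227_a_at was -0.46 ± 0.13 (adjusted p = 0.0397) and that of 1460650_at -0.52 ± 0.13 (adjusted p = 0.0167). Over the 3 ages both were -0.29 ± 0.07 (adjusted p = 0.00978 and 0.00814). Without replicates 1 and 2 of the 8-month knockout, the 8-month differences were -0.70 ± 0.26 (adjusted p = 0.2) and -0.63 ± 0.18 (adjusted p = 0.0772). Over the 3 ages 1460650_at still passed without them (-0.33 ± 0.08, adjusted p = 0.0153), and 1425227_a_at did not (-0.38 ± 0.12, adjusted p = 0.052).

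**Figure D3:**
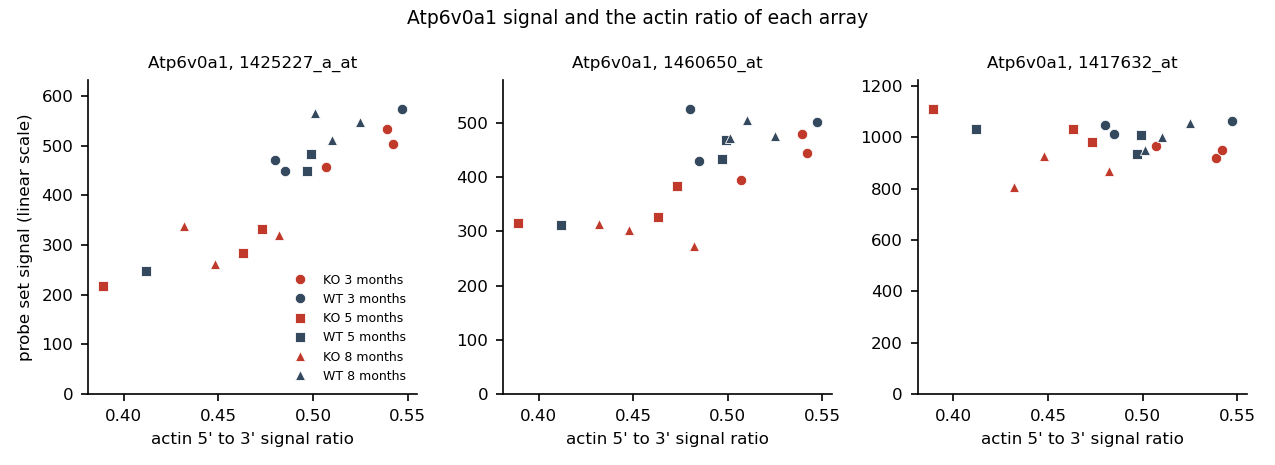
Signal of 3 Atp6v0a1 probe sets (linear scale) against the 5′ to 3′ signal ratio of the actin control probe sets, 1 point per array, knockout in red and wild type dark, circles at 3, squares at 5 and triangles at 8 months. For 1425227_a_at and 1460650_at the arrays with ratios of 0.389 and 0.412 lie among the low signals, while 1417632_at reads 1112 and 1031 on them and 807 at a ratio of 0.432.

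Atp6v0b encodes c″, a proteolipid of the V0 ring, and its promoter window is the first one shown above. Its brightest probe set, 1416769_s_at, read 1448, 1355 and 1562 in the 8-month knockout, against 1639, 1706 and 1590 in the wild type, without overlap. The difference was -0.19 ± 0.06 at 8 months (adjusted p = 0.0563) and -0.11 ± 0.04 over the ages (adjusted p = 0.0608, 95% interval -0.18 to -0.03), so neither passed. It passed over the ages without replicate 3 of the 8-month knockout (-0.12 ± 0.03, adjusted p = 0.0178) or without replicate 3 of the 5-month wild type (-0.11 ± 0.04, adjusted p = 0.048). The other Atp6v0b probe sets gave 0.02 ± 0.06 (1437013_x_at) and -0.09 ± 0.09 (1425448_x_at). Without replicates 1 and 2 of the 8-month knockout the difference over the ages was -0.07 ± 0.04 (adjusted p = 0.314). At 3 and 5 months the means were 1591 ± 73 and 1502 ± 27 in the knockout, against 1667 ± 61 and 1567 ± 66 in the wild type, with overlap at both ages. The gene lies on chromosome 4, as Ppt1 does, with 72 protein-coding genes between them.

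Atp6v0d1 encodes subunit d1, which couples the V0 ring to the central stalk. Its 1 probe set, 1415671_at, read 2114, 2041 and 2092 in the 8-month knockout, against 1995, 1927 and 1925 in the wild type. The knockout was above the wild type on every array at that age, yet the difference of 0.09 ± 0.06 did not pass (adjusted p = 0.351, 95% interval -0.03 to 0.20). At 3 and 5 months the arrays of the genotypes overlapped, with differences of -0.02 ± 0.05 and 0.01 ± 0.05. Over the 3 ages it was 0.03 ± 0.03 (95% interval -0.04 to 0.09). The median difference of the 3 V0 members by their brightest probe sets was -0.09, with 0 of 3 past the test and 2 at an unadjusted p under 0.05, both lower.

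Atp6v1d encodes subunit D, the axle that turns inside V1 as ATP is split. Its brightest probe set, 1416952_at, read 1872, 1993 and 1909 in the knockout at 3 months, against 2137, 2069 and 2105 in the wild type. At 5 months it read 1883, 1964 and 2020 in the knockout, against 2019, 2160 and 2195 in the wild type. At 8 months it read 1886, 1811 and 1876 in the knockout, against 2243, 2162 and 2062 in the wild type. The groups did not overlap at 3 and 8 months, and at 5 months 1 knockout array lay just above the lowest wild-type array.

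Over the 3 ages Atp6v1d fell by 0.15 ± 0.03 on the log2 scale (1416952_at, fold 0.9, adjusted p = 0.00434). The difference was -0.13 ± 0.06 at 3 months (adjusted p = 0.468), -0.12 ± 0.06 at 5 months (adjusted p = 0.377) and -0.21 ± 0.06 at 8 months (adjusted p = 0.0248). The change of the difference between 3 and 8 months did not pass (-0.08 ± 0.08, 95% interval -0.25 to 0.09, adjusted p = 0.712). From low to high, the group means were 1857 ± 41 in the knockout at 8 months, 1925 ± 62 at 3 months and 1956 ± 69 at 5 months. They were 2104 ± 34, 2125 ± 93 and 2156 ± 91 in the wild type at 3, 5 and 8 months (SD, n = 3 each). Neighbours in that order within a genotype had overlapping arrays, while those of the knockout at 5 months and the wild type at 3 months did not overlap.

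The result over the ages held with the actin ratio as a covariate (-0.15 ± 0.04, adjusted p = 0.00958) and without replicates 1 and 2 of the 8-month knockout (-0.14 ± 0.04, adjusted p = 0.0244). The 8-month difference did not pass under either, at -0.20 ± 0.07 (adjusted p = 0.079) and -0.18 ± 0.08 (adjusted p = 0.333). Nor did it pass without replicate 2 of the 8-month knockout, or without replicate 1 or 2 of the 8-month wild type. The 2 other Atp6v1d probe sets gave differences of -0.09 ± 0.04 (1438993_a_at, adjusted p = 0.119) and -0.09 ± 0.06 (1416951_a_at, adjusted p = 0.358) over the ages, neither of which passed. At 8 months 1416951_a_at read 1860, 1880 and 2236 in the knockout, against 1819, 1904 and 1924 in the wild type, so the groups overlapped there. At 5 months it read 2025, 1916 and 1646 in the knockout, against 1990, 2127 and 2599 in the wild type (-0.26 ± 0.10, adjusted p = 0.202), and with the actin ratio as a covariate that difference passed (-0.34 ± 0.08, adjusted p = 0.0206). With the 3 averaged, the difference was -0.11 ± 0.03 over the ages (adjusted p = 0.0258) and -0.07 ± 0.06 at 8 months (adjusted p = 0.474).

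The other V1 subunits showed no difference past the test in any of the comparisons. Atp6v1a encodes subunit A, the one that splits ATP, and its promoter window is the third above. Its signal on 1422508_at lay between 2347 and 2738 on the knockout arrays and between 2414 and 2686 on the wild-type arrays (-0.02 ± 0.03, 95% interval -0.09 to 0.05). The second probe set, 1450634_at, gave 0.01 ± 0.04 (95% interval -0.06 to 0.08). The groups overlapped at every age on both.

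Atp6v1b2 encodes B2, the brain form of the subunit that alternates with A around the V1 head. On 1415814_at it read between 2440 and 3045 in the knockout, against 2558 to 3026 in the wild type (-0.04 ± 0.04, 95% interval -0.13 to 0.05). On 1419883_s_at it read 1213, 1282 and 1287 in the 5-month knockout, against 1411, 1493 and 1436 in the wild type, without overlap. That difference of -0.20 ± 0.07 did not pass (adjusted p = 0.169), and at 3 and 8 months the same probe set gave 0.05 ± 0.07 and -0.03 ± 0.07.

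Atp6v1c1 encodes C1, which clamps the outer stalks to V0 and leaves when V1 comes off. Over the ages its probe sets gave -0.06 ± 0.05 (1419545_a_at, brightest, 95% interval -0.15 to 0.04), -0.09 ± 0.05 (1419544_at) and 0.01 ± 0.04 (1419546_at). At 8 months 1419544_at read 1740, 1663 and 1908 in the knockout, against 2093, 2120 and 2000 in the wild type, with no overlap and no pass (-0.23 ± 0.08, adjusted p = 0.0728). At 5 months it, too, was lowest on the arrays with a low actin ratio, with 1662 on replicate 1 of the knockout and 1657 on replicate 3 of the wild type.

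Atp6v1e1 encodes E1, part of the outer stalks that hold the head still. On its brightest probe set, 1449712_s_at, the difference was -0.03 ± 0.04 (95% interval -0.12 to 0.05). The dimmer 1449711_at read 198, 150 and 161 in the 3-month knockout, against 226, 262 and 220 in the wild type. At 5 months it read 229, 189 and 155 in the knockout, against 264, 270 and 248 in the wild type. The groups overlapped at neither age. At 8 months it read 264, 146 and 266 in the knockout, against 180, 209 and 99.1 in the wild type. They overlapped there, and the differences of -0.45 ± 0.19, -0.43 ± 0.19 and 0.35 ± 0.19 at 3, 5 and 8 months did not pass (adjusted p = 0.408, 0.295 and 0.259). The third, 1420038_at, gave 0.09 ± 0.10.

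Atp6v1h encodes H, which in yeast silences ATP splitting in V1 that has come off V0. Its brightest probe set, 1415826_at, gave 0.04 ± 0.04 (95% interval -0.05 to 0.12). The much dimmer 1457639_at read 121, 168 and 97.6 in the 8-month knockout, against 72.2, 72.5 and 83.6 in the wild type, without overlap. No tested member probe set had a larger positive difference, and it did not pass, at 0.63 ± 0.21 at 8 months (adjusted p = 0.0581) and 0.34 ± 0.12 over the ages (adjusted p = 0.0639). Over the ages it passed without replicate 3 of the 8-month knockout (0.40 ± 0.12, adjusted p = 0.02) or of the 5-month wild type (0.39 ± 0.12, adjusted p = 0.0383). The 4 dim member probe sets had 4 to 16 of 18 arrays at or below background and were left out of the reported test. In the limma fit with no filter, 1449649_at of Atp6v1b2 gave 0.96 ± 0.28 at 3 months (adjusted p = 0.201). All 3 wild-type arrays were at or below background there.

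**Figure D4:**
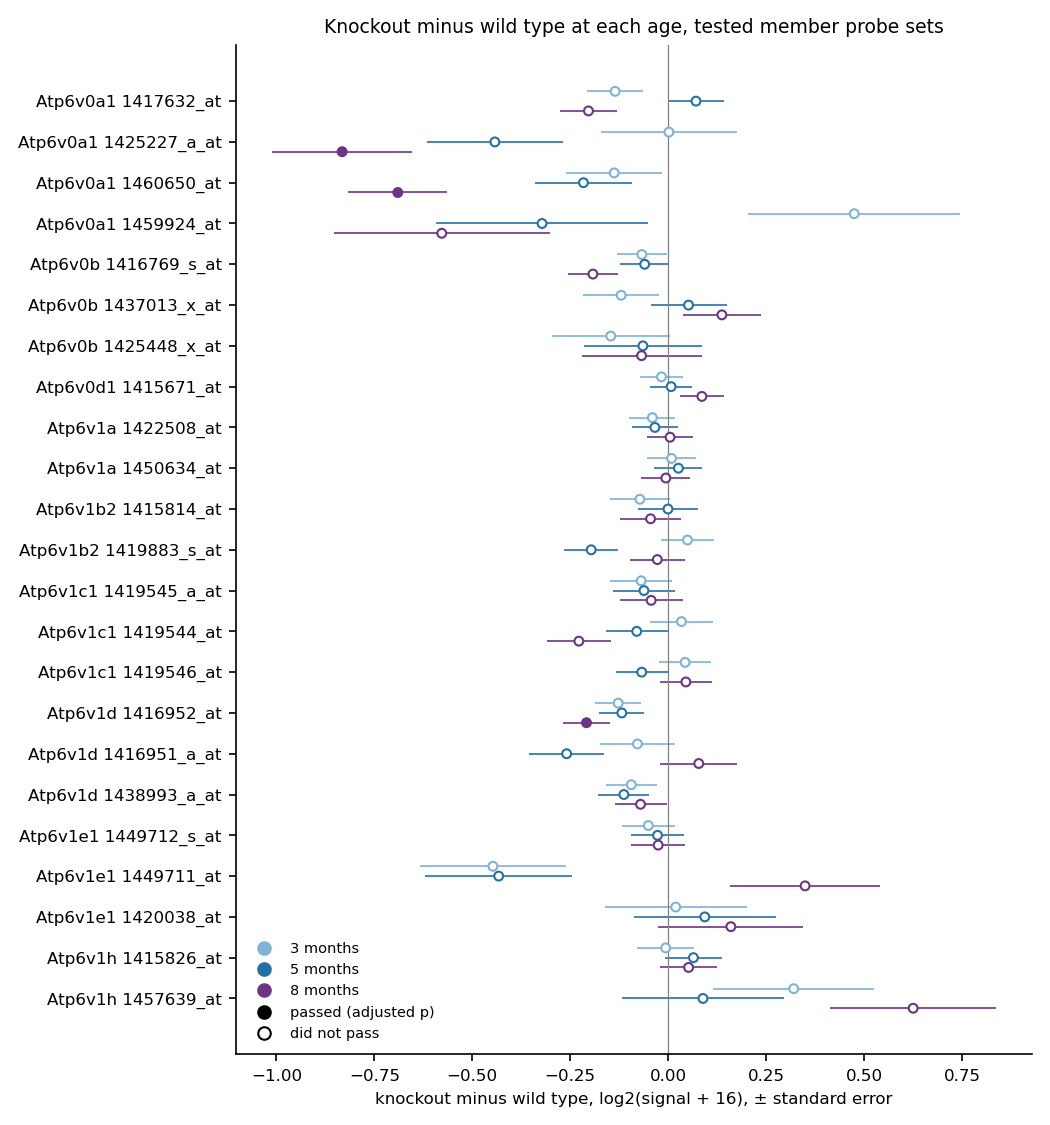
Knockout minus wild type at 3, 5 and 8 months for the 23 member probe sets tested, in log2(signal + 16) with the standard error of the fit, brightest probe set of each gene first. Filled points passed the test and open points did not. The 3 filled points, all at 8 months and all below 0, are 2 probe sets of Atp6v0a1 and 1 of Atp6v1d.

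By age, no member probe set passed at 3 months, where 0.955% of all probe sets did (0.681% higher, 0.274% lower), and by limma 2 had an unadjusted p under 0.05, both lower. Groups without overlap at 3 months were found for 3 member probe sets, all lower, with a background of 8.61% lower and 9.83% higher. At 5 months 0 passed (background 2.2%, 1.64% higher and 0.566% lower), with 4 lower at an unadjusted p under 0.05. No background was computed for the counts at an unadjusted p. At that age 4 did not overlap, all lower, with a background of 10.1% lower and 10.2% higher. At 8 months 3 passed, all lower, or 13.0%, against 11.6% of all probe sets (5.74% higher, 5.91% lower), and 8 had an unadjusted p under 0.05, of which 7 were lower. Without replicates 1 and 2 of the 8-month knockout, 0 member probe sets passed at 8 months, in a fit where 497 of all probe sets did. The count over all probe sets at 8 months moved with single arrays. It was 3147 with all arrays, 1901 and 1266 without replicates 1 and 2 of the 8-month knockout in turn and 5369 without its replicate 3. It was 1744 and 1976 without replicates 1 and 2 of the 8-month wild type in turn. Groups without overlap at 8 months were found for 7 of 23 member probe sets in the lower direction and 3 in the higher, with a background of 14.3% lower and 11.7% higher.

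The difference between knockout and wild type was not shown to change with age. In the test of the 8-month difference against the 3-month difference, 0 of 23 member probe sets passed (background 1.04%, 0.718% higher and 0.326% lower), and by limma 5 had an unadjusted p under 0.05. The values were -0.83 ± 0.25 for 1425227_a_at (adjusted p = 0.11) and -0.55 ± 0.18 for 1460650_at (adjusted p = 0.134), both of Atp6v0a1. Within the knockout, these 2 probe sets were lower at 8 months than at 3, with differences of -0.71 ± 0.18 (adjusted p = 0.0231) and -0.55 ± 0.13 (adjusted p = 0.0137). They were the only 2 of 23 members that passed, or 8.7%, against 5.62% of all probe sets (2.9% higher, 2.72% lower). The count was 0 without replicate 1 of the 3-month knockout, or without replicate 1 or 2 of the 8-month knockout. In those fits 489, 587 and 308 of all probe sets passed, against 1519 with all arrays, so calls were lost in general. With the actin ratio as a covariate the 2 Atp6v0a1 probe sets did not pass, at -0.24 ± 0.14 (adjusted p = 0.412) and -0.34 ± 0.14 (adjusted p = 0.207). Without the 2 arrays of the 8-month knockout the values were -0.58 ± 0.26 and -0.49 ± 0.18 (adjusted p = 0.461 and 0.333). In the wild type, 0 of 23 member probe sets passed between 8 and 3 months (background 0.0296%, 0.0222% higher and 0.0074% lower), and by limma 1 had an unadjusted p under 0.05.

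The pump has further subunits, some of which replace a member in other cells or organelles. Of 15 further pump genes listed, 14 had a probe set and 9 were bright enough to be tested. Over the 3 ages 3 rose and 1 fell by their brightest probe sets, with a median of 0.05 and a background of 6.62% higher and 6.02% lower. At 8 months 3 rose and 2 fell, with a background of 5.74% and 5.91%.

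Tcirg1 encodes a3, the form of the a subunit known from osteoclasts and the lysosomes of macrophages. It read 214, 194 and 153 in the 8-month knockout, against 123, 135 and 98.5 in the wild type, without overlap. At 5 months it read 158, 170 and 178 in the knockout, against 90.8, 142 and 100 in the wild type, and at 3 months 143, 121 and 144 in the knockout, against 107, 105 and 120 in the wild type. The difference over the ages was 0.48 ± 0.09 (fold 1.39, adjusted p = 0.000956), so a3 was higher while a1, by its brightest probe set, was at -0.09 ± 0.04. The third a subunit with a testable signal, Atp6v0a2, gave 0.09 ± 0.08 (adjusted p = 0.549).

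Atp6v0d2 encodes d2, the macrophage and osteoclast form of subunit d, and it was too dim for the reported test. On 1434798_at it read 107, 105 and 23.1 in the 8-month knockout, against 24.7, 27.4 and 11.7 in the wild type, so the 2 high values are the arrays that stood apart. On 1444176_at it read 58.7, 39.1 and 15.9 in the 8-month knockout, against 5.04, 1.73 and 6.97 in the wild type, where all 3 were at or below background, or at least 2.97-fold higher. In the limma fit with no filter, 1444176_at passed at 8 months (1.30 ± 0.29, adjusted p = 0.00897). The brighter 1434798_at did not (1.19 ± 0.41, adjusted p = 0.101). The sums of microglial markers given above are highest on replicates 1 and 2 of the 8-month knockout, and their part in the Tcirg1 and Atp6v0d2 values was not tested.

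Atp6v0e and Atp6v0e2 encode the small e1 and e2 subunits of V0, of which e2 is abundant in brain. Atp6v0e, whose promoter window is the last above, read 707, 642 and 537 in the 8-month knockout, against 399, 399 and 468 in the wild type. It rose at 8 months by 0.58 ± 0.10 (fold 1.5, adjusted p = 0.000891), and at 3 months the difference was -0.01 ± 0.10. The change of that difference between 3 and 8 months was 0.595 ± 0.15 and missed the threshold (adjusted p = 0.0502). Atp6v0e2 read 1739, 1713 and 1671 in the 8-month knockout, against 2071, 1995 and 1974 in the wild type. It fell by 0.24 ± 0.06 at 8 months (adjusted p = 0.0153) and by 0.14 ± 0.03 over the ages (adjusted p = 0.00914). The 2 e subunits thus moved in opposite directions at 8 months.

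Atp6v1g1 and Atp6v1g2 encode the G subunits of the outer stalk, g1 found in most tissues and g2 in neurons. Atp6v1g1 (1423256_a_at) read 2139, 2077 and 1733 in the 8-month knockout, against 1495, 1555 and 1541 in the wild type, a rise of 0.37 ± 0.07 (adjusted p = 0.00259). A second probe set, 1423255_at, gave 0.12 ± 0.09 at that age and did not pass (adjusted p = 0.445). Atp6v1g2 read 2929, 2928 and 2943 in the 8-month knockout, against 3344, 3445 and 3596 in the wild type. It fell by 0.23 ± 0.07 at 8 months (adjusted p = 0.0349), and over the ages the difference was -0.09 ± 0.04 (adjusted p = 0.157). For e and g alike, the subunit known from brain was lower and the one of wider expression higher at 8 months, while the tests compared each gene only with itself.

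**Figure D5:**
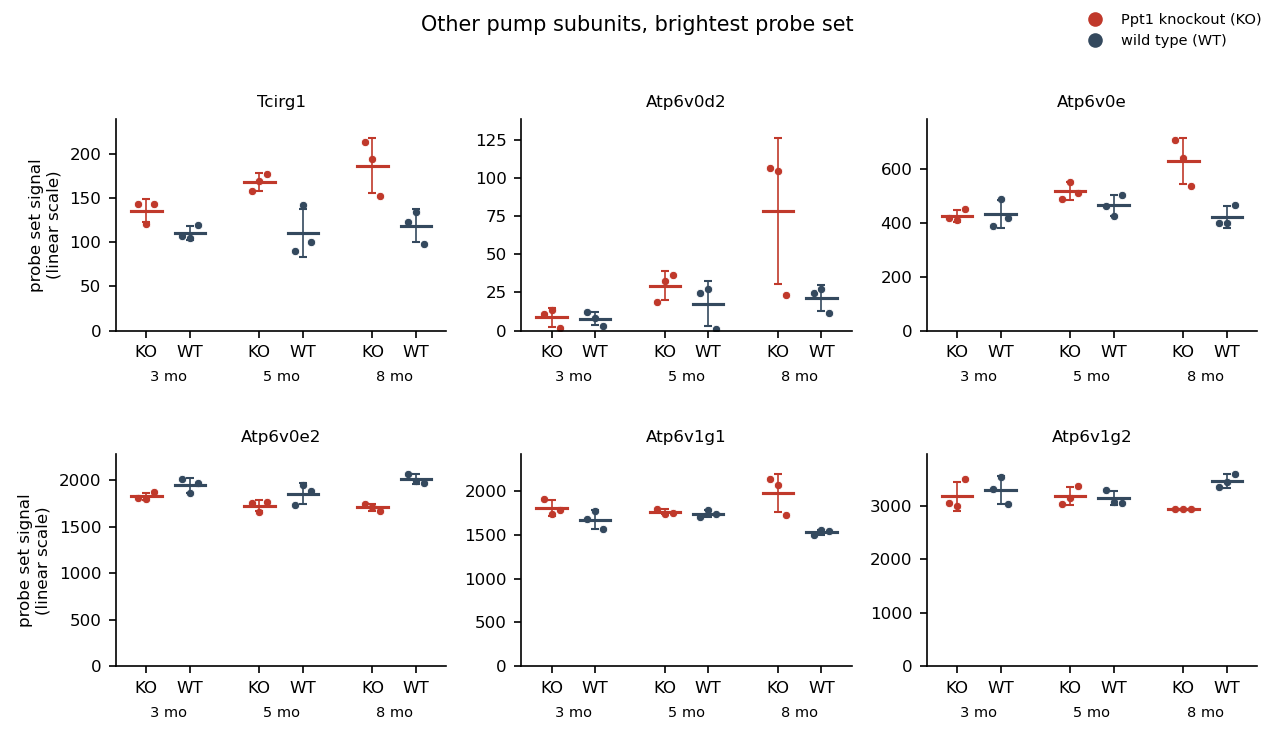
Signal of 6 further pump subunits by their brightest probe sets on each array (linear scale), in knockout (red) and wild-type (dark) samples at 3, 5 and 8 months. Bars are means of 3 arrays and whiskers the SD. At 8 months Tcirg1, Atp6v0e and Atp6v1g1 are higher and Atp6v0e2 and Atp6v1g2 lower in the knockout, and Atp6v0d2 is high on 2 of 3 knockout arrays.

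Without replicates 1 and 2 of the 8-month knockout, 1 of these genes was higher and 1 lower over the ages, and 0 passed at 8 months. The 8-month values were then 0.38 ± 0.22 for Tcirg1 (adjusted p = 0.462), 0.40 ± 0.13 for Atp6v0e (adjusted p = 0.138) and 0.17 ± 0.09 for Atp6v1g1 (adjusted p = 0.41). They were -0.27 ± 0.09 for Atp6v0e2 (adjusted p = 0.137) and -0.21 ± 0.10 for Atp6v1g2 (adjusted p = 0.349). With the actin ratio as a covariate, 3 were higher and 1 lower over the ages, and at 8 months 3 were higher and 0 lower. Of the remaining genes tested, Atp6v1f, a V1 central stalk subunit, gave -0.07 ± 0.04 over the ages (adjusted p = 0.24). The accessory subunits gave 0.05 ± 0.05 (Atp6ap1) and 0.03 ± 0.03 (Atp6ap2, the prorenin receptor), and neither passed.

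The genes that work beside the pump are given from lists, by the brightest probe set of each gene. Of 14 tested genes of pump assembly and regulation, 0 were higher and 1 lower over the ages, with a median of -0.00152 and a background of 12.6% in either direction. The lower one was Oxr1, whose TLDc domain family binds V1, at -0.17 ± 0.04 (adjusted p = 0.0054), and without replicates 1 and 2 of the 8-month knockout 0 of the 14 passed. Of the 6 chloride-proton exchanger genes of endosomes and lysosomes, 0 passed (median 0.04). Of 13 genes of nutrient sensing at the lysosome, which docks on the pump, 4 rose and 1 fell (median 0.02). The one that fell was Rheb, the GTPase that switches on mTORC1 (-0.16 ± 0.05, adjusted p = 0.0424), named after its value was seen. The 4 were Rraga (0.20 ± 0.04), Rragd (0.20 ± 0.05), Rragc (0.21 ± 0.05) and Flcn (0.22 ± 0.06), which are Rag GTPases and folliculin, the activator of RagC and RagD. Without the 2 arrays 3 of the 13 were higher and 0 lower.

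Of 20 tested genes of the lysosomal membrane and lumen, 15 rose and 0 fell over the ages, with a median of 0.50, against -0.04 for the 9 pump members. Examples are Ctss (1.24 ± 0.07) and Ctsd (1.04 ± 0.06), which are cathepsins, Grn (0.86 ± 0.06), the progranulin gene, and Cd68 (1.78 ± 0.12), a lysosomal glycoprotein of macrophages. The median of that list was 0.27, 0.56 and 0.68 at 3, 5 and 8 months. Microglial markers moved with it, since 14 of 18 rose and 1, P2ry12, which was named after its value was seen, fell, and Ctss and Cd68 stand in both lists. Without replicates 1 and 2 of the 8-month knockout, 13 of the 20 rose.

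Of 17 tested genes of synaptic vesicles and transmitter loading, 0 rose and 5 fell over the ages, with a median of -0.105. Examples are Rab3a (-0.16 ± 0.03), a vesicle GTPase, Syn1 (-0.18 ± 0.04), which tethers vesicles, Slc17a7 (-0.23 ± 0.05), the vesicular glutamate transporter VGLUT1, and Stx1a (-0.21 ± 0.05), a fusion protein of the plasma membrane. The fifth, named after its value was seen, was Syt1 (-0.165 ± 0.04), the calcium sensor of release. Excitatory neuron markers moved with it, since 7 of 11 fell, and Slc17a7 and Slc17a6 stand in both lists. Without the 2 arrays 3 fell, and with the actin ratio as a covariate 7 fell. No test compared the pump with these lists.

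Markers of the cells in the extract moved between the genotypes, and their part in the pump results was not tested. The summed microglial signal was 6820 to 7420 in the knockout at 3 months, against 3828 to 4120 in the wild type. It was 9567 to 10327 in the knockout at 5 months, against 4059 to 5050 in the wild type. At 8 months it was 9121 to 17862 in the knockout, against 4998 to 5351 in the wild type. Of 12 astrocyte markers 10 rose, and their sum at 8 months was 30764 to 39482 in the knockout, against 20520 to 21399 in the wild type. Of 11 excitatory neuron markers 7 fell, with sums of 7870 to 9032 in the 8-month knockout, against 10380 to 10960 in the wild type. Of 11 GABAergic markers 3 fell (Vip, Cck and Pvalb), of 9 oligodendrocyte markers 1 (Mal), and of 9 cerebellar markers 2 (Calb1 and Pvalb). Of 10 markers of meninges and fibroblasts 8 rose, or 5 without the 2 arrays. Of 9 markers of endothelium Cldn5 rose, of 9 of choroid plexus and ependyma Foxj1 rose, and of 3 tested genes each of cochlea and of blood 0 passed. Without the 2 arrays 1 of the 9 endothelial genes was higher, and 0 of the 9 choroid plexus and ependyma genes passed. In this comparison over the ages 12.6% of all probe sets passed.

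By the likeness of the 6 group means, the 5 genes nearest to Atp6v1d among 12494 were P3h1, Prelid1, Ppp1r9a, Gfm1 and Nt5m. The root mean square difference between their centred log2 group means and those of Atp6v1d was 0.012 to 0.018. Of these only Ppp1r9a passed the limma test over the ages (-0.137 ± 0.035, adjusted p = 0.0115). The others did not, from Prelid1 (-0.129 ± 0.049, adjusted p = 0.0953) to P3h1 (-0.133 ± 0.13, adjusted p = 0.563). No member was higher past the test, so no likeness was computed in that direction.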

How the data were processed

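The authors deposited 1 table of probe set intensities on a linear scale. No source used here gives the software or the scaling behind it. With 2% of probe sets trimmed at either end, each array averaged 150, and array medians were 43.17 to 46.09, so the values were used as deposited. No count depth exists, and the 3 arrays in a group limit the precision. Genes were named from the platform annotation, where a probe set has 1 symbol. Promoters came from RefSeq (GRCm38.p6).

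After removal of 64 control probe sets and of the 40% with the lowest mean, 27022 probe sets were fitted as log2(signal + 16) over the 6 groups with a term for sex, with limma 3.58.1 in R 4.3.3 (eBayes with trend, Benjamini-Hochberg, two-sided). A fold on that scale understates the change of dim genes. Background was the 95th percentile of 27 bacterial control probe sets, 9.24 to 19.2 by array. A bound on a fold sets the brighter group's mean signal against the mean of the higher of background and signal. All member probe sets are named, with Ppt1, the other pump genes and up to 4 genes per list with the smallest p. The members and lists were chosen with earlier results of these data known. Replicates were numbered in accession order. Alternatives were other normalizations, pseudocounts, filters and variance models, no sex term, array weights, averaged probe sets, a fit of just the groups in a comparison, and leaving out single arrays. The fits without 2 arrays and with the actin ratio were added after the data were seen. The fit was tested on simulated data. Tables and figures were made in Python 3.11.15 with pandas 2.3.3 and matplotlib 3.10.9.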

Additional observations from a re-analysis of the deposited data

How the results depend on the processing

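Among differences of named probe sets that passed in the reported fit or in an alternative, none had the opposite sign in that alternative. Signs of differences that passed in neither fit were not compared. Over the ages the member probe sets that passed were 5 with array weights (3 to 5 leaving out single arrays). With array weights 4750 of all 27022 probe sets passed in that comparison. By brightest probe set 2 genes passed with median centring, the 60% filter, array weights or averaged probe sets (1 to 2 leaving out arrays). At 5 months the count was 1 with the actin covariate (0 to 1). At 8 months it was 5 with median centring or the 60% filter, 6 with array weights and 0 without replicates 1 and 2 of the 8-month knockout (2 to 6). By brightest probe set, 8-month counts were 2 with quantile normalization, median centring, the 60% filter or array weights, and 0 with no variance trend, just the groups in the comparison, without those 2 arrays or with the actin covariate (0 to 2). For the 8-month against the 3-month difference 1 passed with array weights or just those groups (0 to 2). Within the knockout, 8 against 3 months gave 0 with no trend, without the 2 arrays or with the actin covariate, and 1 with just those groups (0 to 3), and by gene 1 with averaged probe sets. The cause was not tested.

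At 8 months 3307 of all probe sets passed with median centring and, with the 60% filter, 3012 of 18015. Over all probe sets, calls with array weights were 4750 over the ages and 668 and 4150 at 3 and 8 months, against 3418, 258 and 3147 as reported. They were 1204 for the change of the difference, 3006 within the knockout and 51 within the wild type, against 282, 1519 and 8. Without the 2 arrays they were 2070 over the ages, 557, 996 and 497 at 3, 5 and 8 months, 85 for the change of the difference, 94 within the knockout and 85 within the wild type, against 3418, 258, 595, 3147, 282, 1519 and 8. Other such counts were 60, 585 and 5 with the actin covariate, and 158, 86 and 77 with just those groups, for the change of the difference and within each genotype. Those groups alone gave 463 at 3 months and 818 at 8 months. With no trend the counts were 134 at 3 months, 393 at 5 months, 0 for the change of the difference, 691 within the knockout and 0 within the wild type. With no filter they were 161, 996 and 2 for the last 3 of these. The wild type alone gave 3 with no sex term and 5 with the 60% filter. Leaving out single arrays gave 2510 to 5028 over the ages and 123 to 444, 294 to 933 and 1266 to 5369 at 3, 5 and 8 months. It gave 44 to 1967 for the change of the difference, 308 to 4301 within the knockout and 0 to 45 within the wild type. Each highest count was without replicate 3 of the 8-month knockout.

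No paired analysis was possible because replicate numbers follow accession order only. With 3 arrays a group, small differences cannot be resolved, and dim probe sets lie near background.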
